A study of Mus musculus with 2 samples.

Results

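Within the wild-type splenic Treg library, 425 cells rich in Il2ra mRNA were set beside 3358 cells in which no Il2ra molecule was counted. Il2ra encodes CD25, the chain that gives the receptor for interleukin-2 (IL-2) its high affinity. Cells entered with at least 500 detected genes, at most 10% mitochondrial unique molecular identifiers (UMIs), 3000 to 10000 UMIs and no UMI of the B cell gene Cd79a. Of 6620 CD25WT barcodes, 5195 (78.5%) met these limits, out of 14150 barcodes in the series. Cells with at least 3 Il2ra UMIs are called Il2ra-high and those with 0 are called Il2ra-negative; 987 cells with 1 UMI and 425 with 2 lay between. The cells were chosen by their Il2ra UMIs, total UMIs, detected genes, mitochondrial share and Cd79a, so those values are descriptions. Every other gene was counted in those same cells, so no difference was tested.

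The study sequenced single CD4+ Tregs sorted from mouse spleen as viable, GFP+ and tdTomato+ cells. CD25WT mice carried CD25WT/WT-tdTomato+/+-Foxp3eGFPCretERT2+/+ and CD25KO mice CD25FL/FL-tdTomato+/+-Foxp3eGFPCretERT2+/+, and both groups received tamoxifen at 2 mg/kg intraperitoneally for 5 days, with harvest at day 10. Cre activity therefore depends on Foxp3-driven expression and on tamoxifen in both groups. Each group was 1 library of 2 pooled spleens, and CD25KO cells were also gated as CD25lo. Cells of 1 library are not replicates, so the 95% intervals given here cover counting error only, and the spread between mice is unknown.

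IL-2 is bound with high affinity when CD25 joins the shared beta chain (Il2rb) and gamma chain (Il2rg). The receptor signals through the kinases JAK1 and JAK3 to the transcription factor STAT5, which raises transcription of Il2ra itself, of feedback inhibitors of the SOCS family and of survival genes. Tregs make little IL-2 of their own and depend on it, and in lymphoid organs central Tregs that carry CCR7 are known as the more IL-2-dependent subset, while effector Tregs carry activation and tissue-homing genes.

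The Il2ra-high cells held 3 to 12 Il2ra UMIs with a median of 4, and their summed level was 667 counts per 1000000 UMIs (CPM). Just inside the limit, 189 cells with exactly 3 UMIs summed to 475 CPM, and the 236 cells with 4 or more to 816 CPM. Just outside it lay the 425 cells with 2 UMIs. Over the 5195 cells, 1 common Il2ra rate of 128 CPM and each cell's own depth would give 2617 cells without an Il2ra UMI and 204 with at least 3. The observed counts were 3358 and 425. Cells with 4 UMIs numbered 105 beside 33.9 at the common rate, and cells with 5 numbered 52 beside 6.01. Cells without a UMI can still express Il2ra, since even the common rate leaves 2617 cells at 0.

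**Figure D1:**
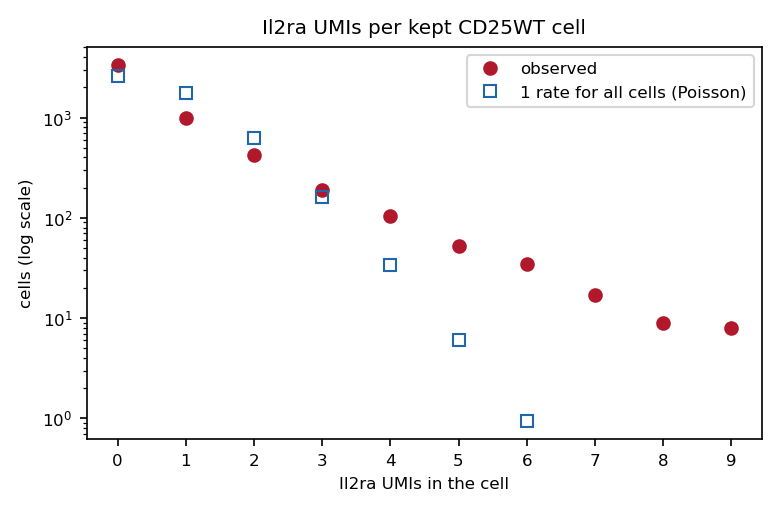
Number of kept CD25WT cells (vertical axis, log scale) with each number of Il2ra UMIs from 0 to 9 (horizontal axis). Filled circles are observed cells and open squares the number at 1 Poisson rate for all cells given each cell's depth (squares under 0.5 cells are not drawn); the circles lie above the squares at 0 and from 3 on, and below them at 1 and 2.

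Depth differed between the groups and was not tested as a cause of any value. Il2ra-high cells had a median of 6409 UMIs (interquartile range 5189 to 7539) and 1819 genes, against 4968.5 UMIs (4058 to 6125) and 1570 genes in Il2ra-negative cells. Of cells with 3000 to under 4500 UMIs, 3.17% were Il2ra-high, and of those with 6000 to 10000 UMIs 14.0% were. The share with no Il2ra UMI was 78.8% and 50.5% in the same ranges. Levels are therefore given also with the negative cells weighted to the depth of the high cells in bins of 500 UMIs, and shares of cells also after each cell was thinned to 3000 UMIs, with no kept cell left out. Mitochondrial UMIs had medians of 4.29% in high and 4.39% in negative cells, and ribosomal protein UMIs 42.0% and 39.7%.

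Markers of other cell types were counted in both groups. Of the high cells 1 and of the negative cells 11 had no UMI of Cd3d, Cd3e or Cd3g. Red cell RNA was uneven: 12 negative cells and 0 high cells held 20 or more haemoglobin UMIs, and these 12 carried 90.5% of the 28112 haemoglobin UMIs of the negative group. The summed level of the 5 erythroid markers was 141 CPM in high and 1604 CPM in negative cells. The 7 B cell markers summed to 219 and 312 CPM, with Igkc at 0 in the high cells and Cd79a at 0 in both groups by the choice of cells. The 6 myeloid markers summed to 86.9 and 147 CPM, with Itgam and Fcer1g at 0 in the high cells, and the 6 CD8 T or NK markers to 40.5 and 38.4 CPM, with Klrb1c, Ncr1 and Klrd1 at 0. The 3 platelet markers summed to 0.37 and 0.17 CPM, and the 3 plasma cell markers to 0 and 0.97 CPM. The counts of genes below were 97 higher and 86 lower without the 12 haemoglobin-rich cells, and 96 and 87 among cells with a CD3 UMI. The 2 libraries had 107 barcodes in common, of which 0 were Il2ra-high and 9 Il2ra-negative cells. As cells that should lack Il2ra, 10 B cells with at least 3 Cd79a UMIs and no CD3 or Cd4 UMI (median 4590.5 UMIs) held none, which allows a share of up to 30% by 3 counts and 30.8% by the Clopper-Pearson interval. A wider set of 17 such cells, chosen after seeing the data (median 4280 UMIs), also held none, which allows up to 17.6% and 19.5% by the same limits.

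At a mean level over the 2 groups of at least 20 CPM, 4724 genes were measured. Of these, 96 (2.03%) were at least 1.5-fold higher in the Il2ra-high cells and 88 (1.86%) at least 1.5-fold lower. The counting interval of the ratio lay above 1 for 548 genes (11.6%) and below 1 for 754 (16%). Il2ra itself, by which the cells were chosen, is counted among the 4724, the 96 and the 548, where it had to be higher. The median log2 ratio over all 4724 genes was -0.03, and -0.01 after depth weighting. The genes named as ranked below had a mean level of at least 50 CPM, an interval on 1 side of 1 and the same direction after depth weighting and in each of 3 depth ranges. They are the 12 with the largest ratio each way of 216 higher and 346 lower genes that met this. The 12 higher were Lrrc32, Socs2, Myc, Cish, Rgs1, Bcl2, Sh3bp5, Sec24a, Il2rb, Ncoa7, Tmem64 and Iigp1. The 12 lower were S100a4, S100a11, S100a6, Rflnb, Smco4, Itgb1, Id2, Lgals1, Tagln2, Emb, Icos and Sh2d1a. Lrrc32, Socs2, Myc, Cish, Sh3bp5, Sec24a and Tmem64 reached 50 CPM through the high cells alone, so they had to be higher. S100a4, Rflnb, Smco4 and Id2 reached it through the negative cells alone, so they had to be lower.

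**Figure D2:**
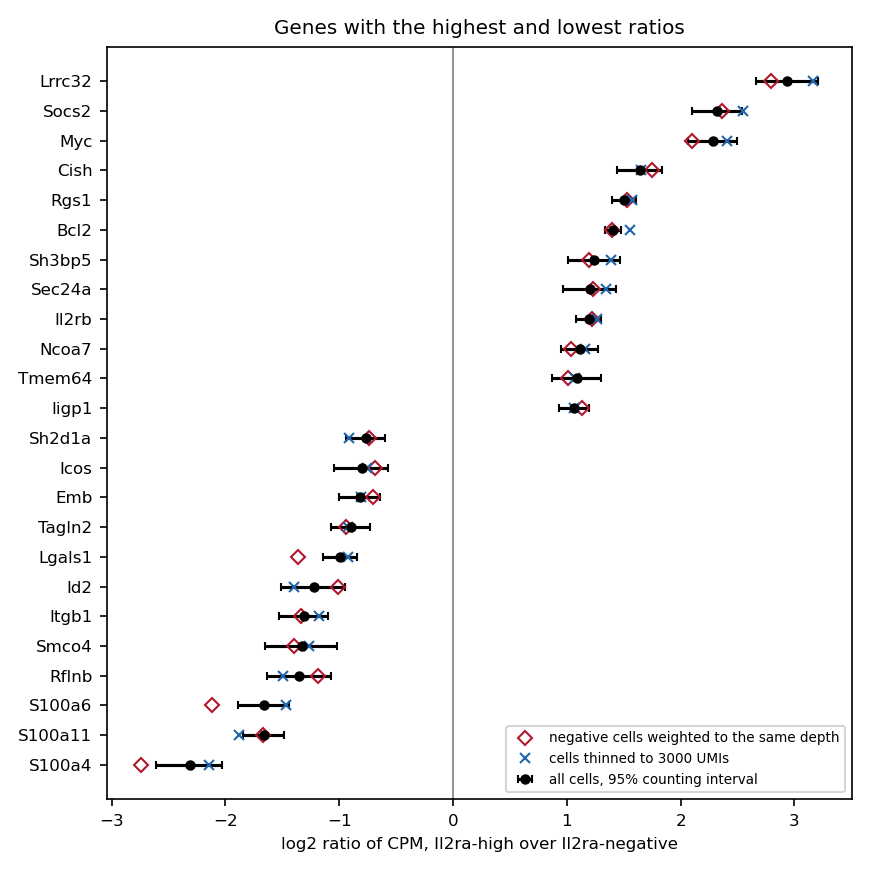
Log2 ratio of CPM in Il2ra-high over Il2ra-negative cells (horizontal axis) for the 12 highest and 12 lowest ranked genes (vertical axis). Black points with bars are all kept cells with the 95% counting interval. Open diamonds are the ratio with negative cells weighted to the same depth and crosses the ratio after thinning to 3000 UMIs. Each gene keeps its side of 0 in all 3, from 2.94 for Lrrc32 to -2.31 for S100a4. The ranking required this for the points and the diamonds.

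The receptor's own chains and first signalling steps differed among themselves. Il2rb, the signalling beta chain shared with the IL-15 receptor, was at 330 CPM in high cells and 144 CPM in negative cells, a log2 ratio of 1.19 (1.08 to 1.30), and 1.22 after depth weighting. An Il2rb UMI was found in 76.9% of high and 43.4% of negative cells, and after thinning in 54.1% and 30.1%. Cells with 1 and 2 Il2ra UMIs lay between at 187 and 226 CPM. Il2rg, the common gamma chain, was at 263 and 252 CPM (log2 0.06, -0.05 to 0.18), and Jak1 at 313 and 311 CPM (log2 0.01, -0.10 to 0.11). For both genes the interval spans 0 and bounds the log2 ratio at 0.18 or less. Stat5a was at 21.9 and 21.2 CPM (log2 0.05, -0.37 to 0.45), and Stat5b at 36.9 and 45.4 CPM (log2 -0.30, -0.61 to -0.00). The gamma-chain kinase gene Jak3, with 22 UMIs in the high cells, fell under the minimum at 8.03 and 13.0 CPM. Of the 8 genes listed for the receptor and its proximal signalling besides Il2ra, 7 were measured, with a median log2 ratio of 0.05. Past 1.5-fold were 1 upward and 0 downward, beside 2.03% and 1.86% of all genes. The same 3' stretches lie in neighbouring annotated transcripts for 26.4% of Il2rg and 18.9% of Jak3, so part of their reads may be uncertain.

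Genes known to respond to IL-2 and STAT5 were higher in the Il2ra-high cells as a list. This list, like the other gene lists, was chosen with earlier results of these data known, so its counts are descriptions. Of 22 listed genes 17 were measured, 11 were at least 1.5-fold higher and 0 lower, beside 2.03% and 1.86% of all genes. Lrrc32 reached the minimum through the high cells alone, and over the other 16 members the count was 10 and the median log2 ratio 0.73. With it the list's median log2 ratio was 0.78 (0.77 after depth weighting) beside -0.03 for all genes, and the interval lay above 1 for 13 members and below 1 for 1, Batf (log2 -0.31), a transcription factor of effector Tregs.

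The list held feedback inhibitors. Socs2, a suppressor of cytokine signalling, was at 111 CPM in high cells and 22.1 CPM in negative cells, 5.00-fold higher (log2 2.32, 2.10 to 2.54; 2.36 after depth weighting). It was detected in 35.3% of high and 7.56% of negative cells, and after thinning in 23.1% and 4.88%. Cish, another SOCS family member and a classical STAT5 target, was at 114 and 36.5 CPM, 3.12-fold higher (log2 1.64, 1.44 to 1.84; 1.75 after depth weighting). A Cish UMI was present in 41.2% and 14.3% of cells, and after thinning in 24.9% and 9.68%. Socs1 was at 173 and 94.0 CPM (log2 0.88), whereas Socs3, which is tied more to STAT3, was at 66.5 and 57.5 CPM with an interval that spans 0 (log2 0.21, -0.03 to 0.44). In 8.70% of the Socs2 3' end the sequence recurs in other transcripts.

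The promoters of Il2ra and Cish are shown because the first gene defined the cells and the second was the 1 gene with a consensus STAT motif among the 5 higher ranked genes that could be searched, Bcl2, Cish, Ncoa7, Sec24a and Sh3bp5. The other 7, Lrrc32, Socs2, Myc, Rgs1, Il2rb, Tmem64 and Iigp1, were not searched. They are RefSeq sequences of GRCm38.p6 on the plus strand, from 250 bases before the transcript start to 30 after it, at chr2:11642542-11642821 for Il2ra and chr9:107296409-107296688 for Cish. Capitals mark TTCNNNGAA, whose letters match themselves on the opposite strand.
Il2ra: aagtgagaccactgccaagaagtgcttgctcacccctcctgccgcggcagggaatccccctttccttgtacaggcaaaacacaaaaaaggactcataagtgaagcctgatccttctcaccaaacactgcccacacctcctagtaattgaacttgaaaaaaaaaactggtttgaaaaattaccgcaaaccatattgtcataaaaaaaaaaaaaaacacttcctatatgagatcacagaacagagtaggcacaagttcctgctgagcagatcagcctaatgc
Cish: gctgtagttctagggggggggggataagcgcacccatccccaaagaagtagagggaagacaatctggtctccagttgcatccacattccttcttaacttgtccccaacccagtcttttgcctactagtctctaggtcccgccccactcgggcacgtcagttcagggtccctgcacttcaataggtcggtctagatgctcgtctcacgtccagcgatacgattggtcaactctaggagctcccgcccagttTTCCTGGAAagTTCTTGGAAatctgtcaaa
Cish carried the motif at bases 251 and 262 of its window, that is from the annotated start onward, and the Il2ra window held no match. RefSeq promoters were found for 5 of the 12 higher genes, of which 1 held the motif in any window of 300 bases, and for 9 of the 12 lower genes, of which 0 did. The share was 9.55% among all genes that RefSeq gave a promoter for, and 8.30% among all 32851 promoter windows. With so few windows these shares are a description of the letters, not of binding.

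The same list held survival and growth genes. Bcl2, an inhibitor of mitochondrial apoptosis, was at 879 CPM in high and 332 CPM in negative cells (log2 1.41, 1.34 to 1.47; 1.39 after depth weighting). The median cell held 5 Bcl2 UMIs in the high group and 1 in the negative group, and 93.9% and 60.8% of cells had any, or 85.2% and 48.2% after thinning. Mcl1, a second survival protein of that family, was at 286 and 247 CPM (log2 0.21). Myc, a driver of cell growth, was at 115 and 23.7 CPM (log2 2.28, 2.06 to 2.50; 2.10 after depth weighting). Its UMIs were in 36.5% and 9.08% of cells, and in 23.1% and 5.39% after thinning. The kinase gene Pim1 was at 260 and 152 CPM (log2 0.78), and the G1 kinase gene Cdk6 at 56.2 and 31.2 CPM (log2 0.85). Its partner Ccnd2 was at 681 and 500 CPM (log2 0.45, 0.37 to 0.52), and Ccnd3 at 222 and 225 CPM (log2 -0.02, -0.14 to 0.10). The transcription factor gene Xbp1 and the matrix protein gene Ecm1 had log2 ratios of 0.69 and 0.67.

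Lrrc32 had the highest ratio of the ranked genes. It encodes GARP, the protein that holds latent TGF-beta on the surface of activated Tregs, and lies at chr7:98489283-98502181 on the plus strand of GRCm38. High cells held 248 Lrrc32 UMIs and negative cells 208, which is 90.6 against 11.8 CPM, a 7.65-fold difference (log2 2.94, 2.66 to 3.21). It was 2.79 after depth weighting and 3.99, 3.18 and 2.49 from the shallowest to the deepest of the 3 depth ranges. A UMI was present in 33.2% of high and 4.82% of negative cells, and in 21.6% and 2.89% after thinning. Cells with 1 and 2 Il2ra UMIs were at 25.7 and 46.8 CPM, and within the high group those with exactly 3 were at 80.4 CPM and those with 4 or more at 98.4 CPM. Lrrc32 was thus ordered with Il2ra over all the classes. None of the 17 B cells had an Lrrc32, Socs2, Cish, Rgs1, Il2rb, Foxp3 or S100a4 UMI, while 2 had a Myc UMI and 2 a Bcl2 UMI. The 64183 UMIs of those cells bound free RNA only down to 46.7 CPM, above the level of some of these genes in negative cells.

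These genes were seen in overlapping cells. At least 1 of Lrrc32, Socs2, Myc and Cish had a UMI in 331 of 425 high cells (77.9%) and in 945 of 3358 negative cells (28.1%). After thinning the shares were 60.9% and 19.6%. All 4 were present in 19 high cells (4.47%) and in 5 negative cells (0.149%), and after thinning in 2 (0.471%) and 1 (0.0298%). These 4 had the largest ratios and reached the ranking limit through the high cells alone, so their larger shares there are a description. Overlap beyond that given by each gene's own share was not tested. None was detected in 94 high cells (22.1%), so the high group also held cells without these transcripts at this depth, and the 28.1% of negative cells with at least 1 were not free of them.

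Other ranked higher genes had roles outside that list. Rgs1, which dampens chemokine receptor signalling, was at 392 CPM in high and 138 CPM in negative cells (log2 1.501, 1.40 to 1.61), with a UMI in 61.9% and 31.2% of cells. Sec24a, a coat protein of vesicles leaving the endoplasmic reticulum, was at 74.5 and 32.4 CPM, and Ncoa7 at 147 and 68.1 CPM. Sh3bp5 was at 79.6 and 33.7 CPM, and Tmem64 at 85.8 and 40.4 CPM. Iigp1, an interferon-inducible GTPase, was at 222 and 106 CPM (log2 1.06, 0.93 to 1.20). The levels of all 12 higher genes were ordered upward at every step of the Il2ra classes 0, 1, 2 and at least 3, an order found in 305 of all 4724 genes (6.46%). Of the 12 lower genes 11 were ordered downward, beside 400 of all genes (8.47%), and the exception was Itgb1. The end classes had chosen these genes, so the order is a description.

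**Figure D3:**
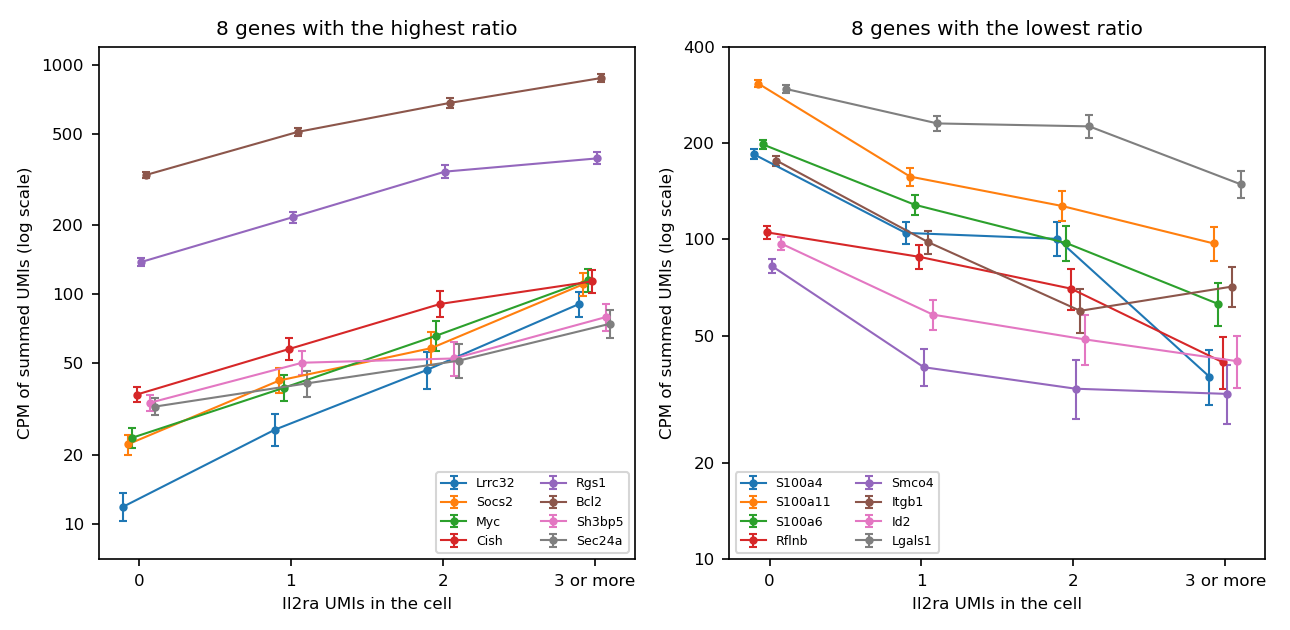
CPM of summed UMIs (vertical axis, log scale) in cells with 0, 1, 2 and at least 3 Il2ra UMIs (horizontal axis) for the 8 highest ranked genes at left and the 8 lowest at right. Bars are 95% Poisson intervals; Bcl2 goes from 332 to 879 CPM and Lrrc32 from 11.8 to 90.6 CPM, while S100a6 goes from 198 to 62.8 CPM and Itgb1 is lowest in cells with 2 UMIs.

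Treg identity genes were partly higher. Foxp3, the lineage transcription factor, was at 63.9 CPM in high and 27.6 CPM in negative cells (log2 1.21, 0.95 to 1.46; 1.27 after depth weighting). A Foxp3 UMI was found in 28.0% and 12.3% of cells, and in 15.8% and 8.07% after thinning, although all cells had been sorted on the Foxp3 reporter. In 13.8% of its 3' end Foxp3 shares sequence with the overlapping transcript Flicr. Ctla4, an inhibitory receptor, was at 171 and 108 CPM (log2 0.67), and Ikzf4, encoding the partner factor Eos, at 96.8 and 68.6 CPM (log2 0.50). Tnfrsf18 and Tnfrsf4, encoding GITR and OX40, had log2 ratios of 0.26 and 0.35. Nrp1 (log2 -0.14, -0.32 to 0.04), Izumo1r (log2 0.02, -0.06 to 0.10) and Nt5e (log2 -0.10, -0.29 to 0.09) had intervals that span 0. Of 17 identity genes 12 were measured, 3 were at least 1.5-fold higher and 0 lower, beside 2.03% and 1.86% of all genes, and the median was 0.14. The 3 were Foxp3, Ctla4 and Socs2, which is also in the IL-2 and STAT5 list.

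Ikzf2, encoding Helios, did not follow Foxp3. It was at 713 and 760 CPM (log2 -0.09, -0.16 to -0.02; 0.01 after depth weighting), yet a UMI was present in 81.2% of high and 64.6% of negative cells, and in 70.6% and 56.8% after thinning. The share and the summed level thus had opposite orders, and no order is read from them. Among cells with a Ccr7 UMI and no S100a4 UMI its log2 ratio was 0.65 (0.55 to 0.76), and among cells with an S100a4 UMI and no Ccr7 UMI, only 12 of them Il2ra-high, it was -2.27 (-3.15 to -1.52).

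Central Treg genes had no common direction. Of 15 listed and measured, the interval lay above 1 for 3 and below 1 for 3, beside 11.6% and 16% of all genes. Their median log2 ratio was -0.00. Foxp1, a transcription factor of resting T cells, was at 440 CPM in high and 338 CPM in negative cells (log2 0.38). Ccr7, the chemokine receptor for lymphoid T zones, was at 137 CPM in both (log2 -0.00, -0.16 to 0.16), with thinned shares of 28.2% and 28.9%. Tcf7, a factor of resting T cells, was lower at 140 and 225 CPM (log2 -0.69, -0.84 to -0.54), as was Dapl1 at 27.8 and 47.1 CPM. Il7r, the IL-7 receptor chain gene, was at 338 and 445 CPM (log2 -0.40), which was -0.15 after depth weighting. Cells with a Ccr7 UMI and no S100a4 UMI made up 47.3% of high and 39.2% of negative cells, and 27.8% of both after thinning.

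Most measured effector Treg genes were lower in the Il2ra-high cells. Of 20 listed 12 were measured, 9 were at least 1.5-fold lower and 0 higher, beside 1.86% and 2.03% of all genes, and the median log2 ratio was -0.91 (-1.04 after depth weighting). Ccl5 and Anxa2 reached the minimum through the negative cells alone, so they had to be lower, and over the other 10 members 7 were lower with a median of -0.81. The interval lay below 1 for 11 members and above 1 for 1, Vim (log2 0.17), which was -0.08 after depth weighting. S100a4, a calcium-binding protein gene on chromosome 3 at chr3:90603771-90606045, had 102 UMIs in high and 3247 in negative cells, at 37.2 and 185 CPM. That is 4.96-fold lower (log2 -2.31, -2.61 to -2.03; -2.74 after depth weighting). The difference lay in few cells: a UMI was found in 18 high cells (4.24%) and 304 negative cells (9.05%), with up to 28 and 67 UMIs in a cell. Within the high group, cells with exactly 3 Il2ra UMIs were at 63.7 CPM and those with 4 or more at 16.8 CPM. S100a6, its neighbour on that chromosome, was at 62.8 and 198 CPM (log2 -1.66, -1.89 to -1.44), with up to 49 and 83 UMIs in a cell. S100a11 was at 97.1 and 307 CPM (log2 -1.66), S100a10 at 492 and 753 CPM (log2 -0.61), and Lgals1, encoding galectin-1, at 149 and 296 CPM (log2 -0.99). Annotated transcripts share 46.4% of the S100a4 and 39.8% of the S100a11 3' end, so their counts are uncertain to that extent.

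Costimulation and effector factors in that list followed. Icos, a costimulatory receptor of effector and follicular cells, was at 59.5 CPM in high and 104 CPM in negative cells (log2 -0.80), and the transcription factor gene Maf at 135 and 239 CPM (log2 -0.83). The chemokine gene Ccl5 was at 12.4 and 46.0 CPM (log2 -1.89), and Anxa2, a membrane-binding annexin, at 12.4 and 38.3 CPM (log2 -1.63). Cd44, an adhesion receptor of activated T cells, was at 34.0 and 44.5 CPM (log2 -0.39). Outside the list, Itgb1, the integrin beta 1 chain, was at 71.2 and 177 CPM (log2 -1.31, -1.53 to -1.10). Id2, an inhibitor of E proteins, was at 41.6 and 97.1 CPM (log2 -1.22), and the actin-binding Tagln2 at 108 and 201 CPM (log2 -0.90). Rflnb, encoding a filamin-binding protein, was at 41.3 and 105 CPM, Smco4 at 32.9 and 82.5 CPM, and Emb, a surface glycoprotein gene, at 102 and 180 CPM.

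Several follicular genes were also lower. Sh2d1a, the adaptor SAP used by follicular T cells, was at 114 and 193 CPM (log2 -0.77), and Pdcd1, encoding PD-1, at 20.8 and 46.2 CPM (log2 -1.15). Sostdc1, a secreted BMP and Wnt antagonist of follicular cells, had 10 UMIs in high and 817 in negative cells (log2 -3.67, -4.74 to -2.78). Of 11 follicular regulatory genes 4 were measured, 3 of them at least 1.5-fold lower beside 1.86% of all genes, and Cxcr5 and Bcl6 were under the minimum. Sostdc1 reached it through the negative cells alone, and of the other 3 members 2 were lower. Rora, below, reached it in the same way. Of 9 genes of ST2 tissue-type Tregs 3 were measured, 1 of them at least 1.5-fold lower beside 1.86% of all genes. Of the 2 members at 20 CPM in both groups, 0 were at least 1.5-fold lower. Rora was at 13.9 and 32.3 CPM (log2 -1.22), while Gata3 was at 65.7 and 76.0 CPM (log2 -0.21, -0.44 to 0.02) and Il1rl1, the gene for ST2, was under the minimum.

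Among trafficking receptors 13 of 23 were measured, 4 were at least 1.5-fold lower and 0 higher, beside 1.86% and 2.03% of all genes. Cxcr3, a receptor for interferon-induced chemokines, was at 10.2 and 36.9 CPM (log2 -1.85) and reached the minimum through the negative cells alone. Gpr183, which guides cells along oxysterols, was at 82.5 and 134 CPM (log2 -0.69), and S1pr4 at 50.03 and 77.0 CPM (log2 -0.62). S1pr1, the receptor for egress into blood and lymph, was at 238 and 244 CPM (log2 -0.04, -0.16 to 0.08). Of 13 measured receptors for other cytokines, 1 was at least 1.5-fold higher and 1 lower, beside 2.03% and 1.86% of all genes. They were Il4ra at 56.6 and 34.3 CPM (log2 0.72) and Il18r1 at 28.1 and 42.6 CPM (log2 -0.60). Among the suppressor genes, 6 of 14 were measured, with Lrrc32 and Ctla4 at least 1.5-fold higher and Lgals1 lower, beside those same shares of all genes. Tgfb1 was at 96.0 and 86.1 CPM (log2 0.16, -0.04 to 0.35). Lrrc32 reached the minimum through the high cells alone. Over the 4 suppressor genes at 20 CPM in both groups, 1 was higher and 1 lower. Of 11 helper lineage genes 2 were measured, with a median log2 ratio of -0.36.

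T cell receptor genes were lower by small amounts. The interval lay below 1 for 13 of the 15 receptor complex genes and above 1 for 0, beside 16% and 11.6% of all genes. Their median log2 ratio was -0.32 (-0.27 after depth weighting), and 0 of them passed 1.5-fold. Trac, the alpha chain constant gene, was at 532 CPM in high and 744 CPM in negative cells (log2 -0.48), and Cd3g at 737 and 997 CPM (log2 -0.43). Genes induced by receptor stimulation gave 6 measured of 15, with 0 past 1.5-fold either way and a median of -0.22. Cd69, an early activation antigen, was at 202 and 207 CPM (log2 -0.04), and Nr4a1 was under the minimum.

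NF-kB and TNF receptor genes had medians near that of all genes. Of 12 measured NF-kB genes the median was -0.08, and 1 was past 1.5-fold upward, beside 2.03% of all genes. It was Nfkbiz, an atypical I-kappa-B protein, at 70.1 and 33.9 CPM (log2 1.05, 0.81 to 1.29). Rel, encoding c-Rel, was at 80.3 and 55.3 CPM (log2 0.54). Of 7 measured TNF receptor genes 0 passed 1.5-fold, with a median of -0.08. Among 12 measured apoptosis regulators the median was -0.14. Bcl2 and Casp8, an initiator caspase at 179 and 108 CPM (log2 0.73), were past 1.5-fold upward, beside 2.03% of all genes. Bcl2l11, the BIM gene that opposes Bcl2, was at 36.2 and 46.3 CPM (log2 -0.36, -0.67 to -0.06).

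Growth machinery differed by part. Of 19 ribosome biogenesis genes the interval lay above 1 for 15 and below 1 for 0, beside 11.6% and 16% of all genes. Their median log2 ratio was 0.38, or 0.26 after depth weighting. Nop16 reached the minimum through the high cells alone, and the median of the other 18 was 0.36. Gnl3, encoding nucleostemin, was at 89.8 and 45.1 CPM (log2 0.99), the box C/D particle gene Nop58 at 119 and 72.6 CPM (log2 0.71), and Ncl, encoding nucleolin, at 486 and 374 CPM (log2 0.38). Glycolysis genes were not higher as a list: 0 of 10 measured passed 1.5-fold, the median was -0.17, Eno1 had a log2 ratio of 0.33 and Gapdh of -0.30. Other annotated transcripts share 37.05% of the Eno1 and 38.51% of the Gapdh 3' end, so part of their reads may be uncertain. Oxidative phosphorylation genes had a median of -0.05 over 19 members and cholesterol genes one of 0.10 over 7, with 0 past 1.5-fold in either list. Cell cycle genes had a median of -0.50 over 7 measured of 23, with Stmn1 at 12.8 and 32.3 CPM (log2 -1.34) and Hmgb2 at 197 and 314 CPM (log2 -0.67). The same holds for 20.84% of the Stmn1 and 18.88% of the Hmgb2 3' end, which recur in other transcripts. Stmn1 and Mcm7 reached the minimum through the negative cells alone, and the median of the other 5 was -0.23. Cells with at least 2 UMIs over Mki67, Top2a, Birc5, Ube2c and Stmn1 were 6 of 425 high cells (1.41%, 0.520 to 3.05) and 123 of 3358 negative cells (3.66%, 3.05 to 4.35). Of 11 measured genes of growth restraint, 1 was at least 1.5-fold lower, beside 1.86% of all genes, and the median was -0.05 (0.13 after depth weighting). It was Ddit4, an inhibitor of mTORC1, at 157 and 259 CPM (log2 -0.72).

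Interferon-inducible genes split. Of 20 measured, 3 passed 1.5-fold upward and 0 downward, beside 2.03% and 1.86% of all genes, and the median was 0.16. The 3 were the GTPase genes Iigp1, Gbp2 at 100 and 49.3 CPM (log2 1.02) and Gbp7 at 185 and 96.0 CPM (log2 0.95). Isg15, a ubiquitin-like protein gene of the type I response, was at 75.2 and 95.8 CPM (log2 -0.35), and Ifi27l2a at 1440 and 1866 CPM (log2 -0.37). Among 10 measured genes of AP-1 and dissociation stress, Jun was the 1 past 1.5-fold (log2 0.60), beside 2.03% of all genes. Junb was at 143 and 194 CPM (log2 -0.43) and the median of the list was -0.14. Of 8 genes of the Ly6 and MHC-linked list, 2 were at least 1.5-fold lower, beside 1.86% of all genes. They were Ly6a at 171 and 272 CPM (log2 -0.67) and Cd74 at 28.1 and 48.8 CPM (log2 -0.80). Without cells that lacked a CD3 UMI, Cd74 was at log2 0.03.

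**Figure D4:**
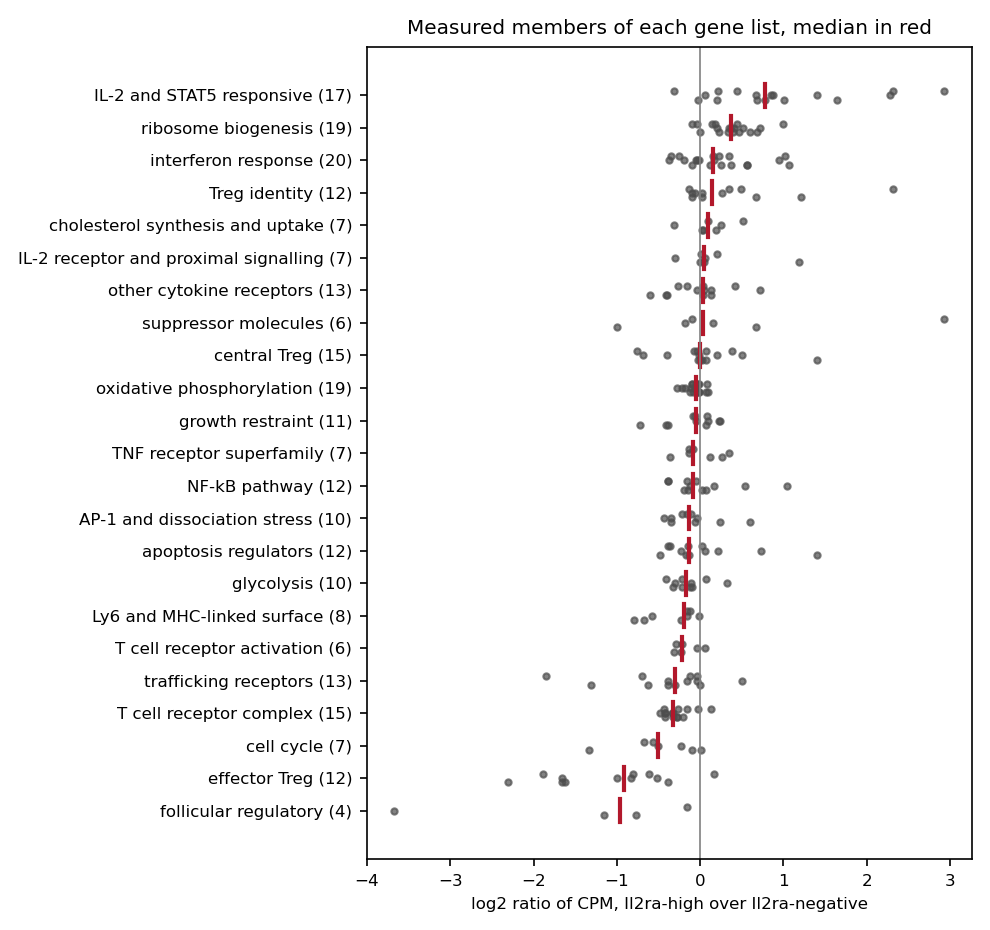
Log2 ratio of CPM in Il2ra-high over Il2ra-negative cells (horizontal axis) for each measured member (grey points) of the gene lists with at least 4 measured members (vertical axis, number measured in brackets, erythroid list not drawn); red ticks are list medians. The IL-2 and STAT5 list has its median at 0.78 and ribosome biogenesis at 0.38, while effector Treg is at -0.91 and follicular regulatory at -0.96. Each of these lists holds members that reached 20 CPM through 1 group alone. Over members at 20 CPM in both groups the medians, not drawn, were 0.73, 0.36, -0.81 and -0.77 in that order.

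Within cells with a Ccr7 UMI and no S100a4 UMI, 201 high and 1317 negative, the higher genes kept their direction. Log2 ratios there were 2.83 for Lrrc32, 2.69 for Socs2, 1.82 for Myc, 1.64 for Cish, 1.61 for Rgs1, 1.36 for Il2rb, 1.23 for Foxp3 and 1.07 for Bcl2. S100a6, S100a11 and Itgb1, lower over all kept cells, had log2 ratios of smaller size there, at -1.24, -1.10 and -0.58. Gpr183, also lower over all kept cells, had one of larger size (-1.05). Cells with an S100a4 UMI were left out of this subset by choice. In the subset 166 genes passed 1.5-fold upward and 58 downward, a share of 74.1% higher beside 52.2% over all kept cells. Of the 96 higher and 88 lower genes over all kept cells, 74 and 27 also passed 1.5-fold there (77.1% and 30.7%). The cells with an S100a4 UMI and no Ccr7 UMI, 12 high (2.82%) and 243 negative (7.24%), gave few UMIs per gene in the high group. There Cish (log2 -0.74), Ncoa7 (-0.94) and Icos (0.15) had the opposite sign, and Lrrc32 had no finite log2 ratio.

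The CD25KO library, under the same limits, gave 4832 cells, of which 4254 (88.0%) had no Il2ra UMI and 36 (0.745%) at least 3, with Il2ra at 32.4 CPM over all of them. The labels do not say which exons of Il2ra the deletion removes, and 3' counts need not show it. The 4254 cells had a median of 4583.5 UMIs. Genotype, the CD25lo gate and the library cannot be told apart, so their levels are printed side by side with the CD25WT classes as a description, with no test. For Bcl2 the levels were 879 CPM in Il2ra-high CD25WT, 332 CPM in Il2ra-negative CD25WT and 177 CPM in CD25KO cells. Myc was at 115, 23.7 and 12.1 CPM in that order, and Lrrc32 at 90.6, 11.8 and 8.37 CPM. Socs2 was at 111, 22.1 and 17.8 CPM and Cish at 114, 36.5 and 34.5 CPM. The Poisson intervals of the negative CD25WT and CD25KO levels overlapped for Cish (33.8 to 39.5 and 32.0 to 37.0 CPM). Il2rb was at 330, 144 and 194 CPM and Iigp1 at 222, 106 and 233 CPM. S100a4 was at 37.2, 185 and 616 CPM, S100a6 at 62.8, 198 and 907 CPM, and Itgb1 at 71.2, 177 and 439 CPM. Ikzf2 was at 713, 760 and 1703 CPM.

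**Figure D5:**
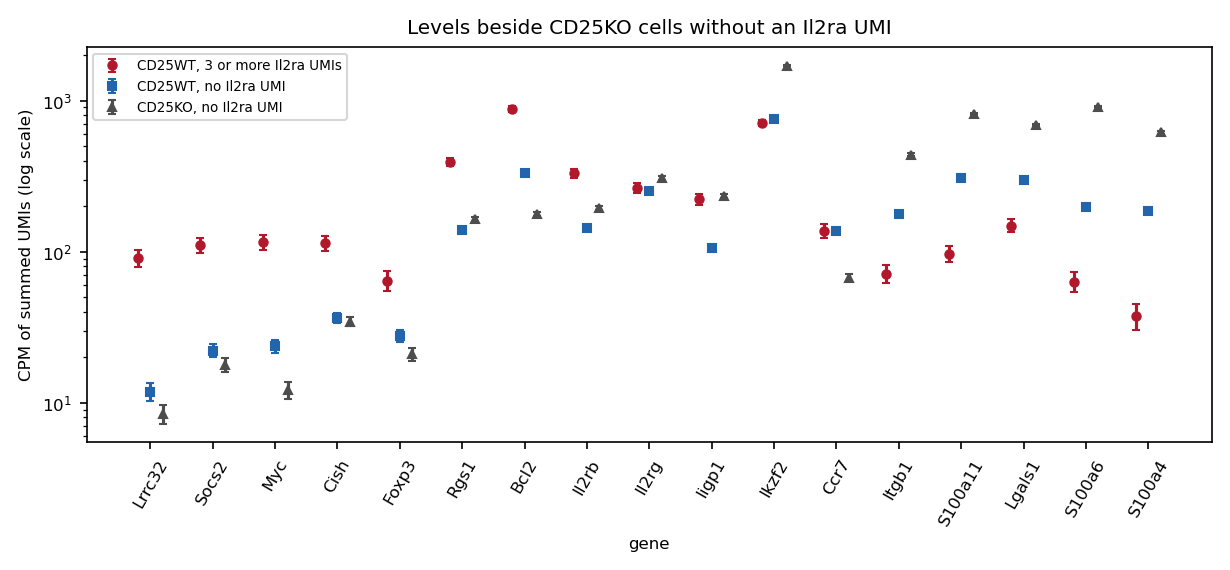
CPM of summed UMIs (vertical axis, log scale) for 17 genes (horizontal axis) in Il2ra-high CD25WT cells (red circles), Il2ra-negative CD25WT cells (blue squares) and CD25KO cells with no Il2ra UMI (grey triangles), with 95% Poisson intervals. Bcl2 is drawn at 879, 332 and 177 CPM and S100a4 at 37.2, 185 and 616 CPM; genotype, gate and library cannot be told apart between the blue and grey points.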

How the data were processed

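The authors deposited raw UMI counts per gene and barcode for 1 library per group. Per the file headers the counts come from Cell Ranger 6.0.0, and the build is mm10 per the submitters' processing notes. The file lists 32285 genes. Cells and lists were chosen with earlier results of these data known. UMIs were summed over the cells of each class and scaled to CPM with all genes in the total. Intervals are at 95%: exact Poisson for sums, exact conditional for ratios, and Clopper-Pearson for shares. Genes were counted at 1.5-fold where the mean level of both groups reached 20 CPM. A limit from a count of 0 is 3 counts of the total. No test was made, since there is 1 library per group. The ratio script was tested on simulated data.

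Named genes are the 12 ranked each way, up to 4 members of each of 31 lists with the largest absolute ratio, and a few receptor, Treg and homing genes. Ranking left out Il2ra, Cd79a, receptor and immunoglobulin segments, ribosomal, mitochondrial, haemoglobin and unnamed genes. Further list members were named after their values were seen. Scrublet (Scanpy 1.11.5) called 0 doublets at an expected rate of 5.296%, which was taken as a failure, so doublets remain. In an alternative, the 351 barcodes of highest score were removed, among them 15 high and 174 negative cells. TMM factors came from edgeR 4.0.16. Positions and shared 60-base stretches of the last 600 transcript bases are from GENCODE mouse release M21, and promoters are from RefSeq GRCm38.p6. Alternatives covered scaling, depth, thresholds, cell limits and cell subsets. List counts over members at 20 CPM in both groups were added after seeing the data. One of the named genes is not reported here.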

Additional observations from a re-analysis of the deposited data

Results flagged for a closer look

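In 4 of the genes named by rule the ratio of Il2ra-high to Il2ra-negative cells had opposite signs in 2 subsets of cells, each beyond counting error. The difference was not tested. Only genes named by rule were searched, so the number among all 4724 measured genes is not known. The subsets were cells with an S100a4 UMI and no Ccr7 UMI (12 high cells, so that each value there rests on few UMIs) and cells with a Ccr7 UMI and no S100a4 UMI. The log2 ratio of Ikzf2, encoding Helios, was -2.27 in the first and 0.65 in the second, from 14 and 946 UMIs in high cells. Gpr183, the oxysterol receptor gene, was at 0.996 and -1.05, from 19 and 82 UMIs. Egr1, an immediate early gene, was at 1.69 and -1.07, from 6 and 22 UMIs. Ier2, another immediate early gene, was at 0.91 and -0.48, from 17 and 113 UMIs.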

How the results depend on the processing

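Over 22 settings, 21 for Lrrc32 and S100a4, the 24 ranked genes kept their direction except Cish (-0.74), Ncoa7 (-0.94) and Icos (0.15) in cells with an S100a4 UMI and no Ccr7 UMI. Lrrc32 had no finite log2 ratio in those cells, so its direction there is not known. S100a4 had none in cells with a Ccr7 UMI and no S100a4 UMI, by the choice of cells. Without the S100a4 subset the log2 ratio ranged from 1.12 to 3.99 for Lrrc32, 0.62 to 1.96 for Bcl2 and -3.46 to -0.82 for S100a4. Depth weighting and the 3 depth ranges were among the settings. The ranking had required the same direction in them, so they could not differ. Settings that changed only the scaling reused the same sums. The counts of genes at least 1.5-fold higher and lower (96 and 88) were 97 and 76 with depth weighting, sharing 83 and 68 genes. They moved by over 1.5 times, for at least 1 direction, to 211 and 145 when the total left out ribosomal and mitochondrial genes, 143 and 152 after thinning, 881 and 558 at 3000 to under 4500 UMIs, 319 and 198 at 4500 to under 6000 UMIs, 59 and 60 with at least 2 Il2ra UMIs as high, 151 and 133 with at least 4, 8 and 43 for cells with 1, 224 and 229 in cells with a Foxp3 UMI, 166 and 58 in the Ccr7 subset and 1380 and 1171 in the S100a4 subset. With minimum levels of 10 CPM, 50 CPM and none they were 185 and 222, 41 and 38, and 1633 and 1487. The cause was not tested; the subsets hold fewer cells. Of values past 1.5-fold over all cells, the log2 ratio changed sign at 3000 to under 4500 UMIs for the B cell list (0.29), Jak3 (0.45), Il4ra (-0.24), S1pr4 (0.056) and Cd74 (0.65). It did so in cells with a Foxp3 UMI for Dapl1 (0.83), Nop16 (-0.10), Hba-a1 (0.030) and Hbb-bt (0.93). In the S100a4 subset it did for the IL-2 and STAT5 list (-0.0012), the myeloid list (0.062), Jak3 (0.10), Tcf7 (0.30), Pdcd1 (0.10), Nfkbiz (-0.36), Il4ra (-0.56), Il18r1 (0.24), Gpr183 (0.996), Mybbp1a (-0.30), Stmn1 (0.67), Ly6a (0.32), Cst3 (0.062) and Hbb-bt (1.55). Among alternatives chosen after seeing the data, Cd74 was at 0.035 in cells with a CD3 UMI and Hbb-bt at 0.011 without haemoglobin-rich cells. The CD8 T or NK list gave no value in the S100a4 subset. Of the other values for genes, 1926 lay within the gene's counting interval over all kept cells and 556 lay outside it. For lists the limit was set by the median interval width of the members, and 608 values lay within it and 112 outside. The smaller counts of the subsets were not allowed for, so these numbers are descriptions. Values outside include sign changes of values under 1.5-fold such as Ikzf2, from -0.09 to 0.65 in the Ccr7 subset. No paired analysis was possible because both groups are cells of 1 library. With 1 library, the spread between mice is unknown, and a gene at 20 CPM rests on few UMIs in the high cells.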
